A study of Homo sapiens with 6 samples.

Results

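The proteasome genes followed here are 39 members, the subunits of the proteasome, its activators and some of the factors that build it, out of 20289 genes in a table of ribosome footprints. They were taken by gene symbol from a fixed list, after the Ensembl identifiers of the table had been matched to symbols, and all 39 were found. Of the whole table, 11566 genes had at least 1 FPKM in at least 3 libraries and were tested, among them all 39 members. FPKM is the number of fragments on a gene, relative to the length of its model and to the size of the library, so that levels can be set side by side between genes of different length. The libraries come from RKO, an established human colorectal cancer cell line. 3 libraries carried a control short hairpin RNA (shControl, labelled wild type) and 3 a hairpin that targets TRMT6 (shTRMT6, labelled as a knockdown), and both groups were grown in the same line. TRMT6 is the partner subunit of the enzyme that methylates adenosine in transfer RNA. The labels do not say whether a library is a culture of its own, how many hairpins or clones were used, or when the cells were collected, so the p-values here cover the variation from library to library, which may be technical.

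The proteasome degrades proteins that carry ubiquitin chains. Its core particle is a barrel of alpha rings (PSMA1 to PSMA7), which gate the entry, and beta rings (PSMB1 to PSMB7), which hold the proteolytic sites inside. The regulatory particle caps the barrel. Its ATPase ring (PSMC1 to PSMC6) unfolds the substrate and pushes it into the core, and its non-ATPase subunits (PSMD genes and ADRM1) bind ubiquitin, remove it and hold the cap together. Activators of the PSME family can take the place of the cap, and assembly factors such as POMP and the PSMG proteins help the core rings to form. In many cells the genes are transcribed together under NFE2L1, a factor that is released when proteasome activity is short.

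The knockdown was checked first. TRMT6 stood at 57.57, 58.4 and 95.29 FPKM under the control hairpin and at 20.74, 21.85 and 24.14 FPKM under its own (log2 fold change -1.58, SE 0.27, limma adjusted p = 0.00301), and the groups did not overlap. The summed FPKM of a library was 1463344 to 1760307 in shControl and 1531873 to 1582826 in shTRMT6. Steps between low values put the depth at an estimated 2608000 to 3899000 reads in shControl and 2581000 to 4090000 in shTRMT6, and the least covered member value, for PSMA2, rests on about 42 reads. Pearson's r of log2(FPKM + 1) was 0.936 to 0.964 among control libraries, where shControl replicate 3 had the lower values, and 0.959 to 0.963 among knockdown libraries. The median FPKM of tested genes was 22.3 to 25.0 in shControl and 32.2 to 33.3 in shTRMT6, so most genes sat higher in the knockdown table, and results are also given with each library scaled to its median. Of 9 epithelial and intestinal marker genes, 4 (EPCAM, KRT8, KRT18 and CDX2) had at least 1 FPKM in at least 3 libraries, and CDH1, VIL1 and CDH17 were listed at 0 in every library. The summed level of these 9 markers was 164.95 to 261.82 FPKM in shControl and 168.36 to 193.45 FPKM in shTRMT6. None of 5 fibroblast and 3 endothelial markers reached that level, and of 5 blood markers only CD68, a lysosomal protein, did. It stood at 559.39 to 740.07 FPKM in shControl and 575.38 to 754.03 FPKM in shTRMT6, while the other blood markers were listed at 0.

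Footprints on the proteasome were lower in the knockdown, with a lower median on the core particle than on the regulatory particle. Core genes are also shorter, and short genes tended to be lower in the whole table. Removing trends with level and coding length brought the 2 medians to -0.96 and -0.69. Without that step all 14 core genes fell, and their log2 fold changes had a median of -1.27. Of the 18 genes of the regulatory particle 7 fell and 1, PSMD13, rose, with a median of -0.54. Of the 39 members 25 fell, 1 rose and 13 did not pass the test. Their median was -0.89 (limma on log2(FPKM + 1), Benjamini-Hochberg adjusted p under 0.05 over all 11566 tested genes). Of all tested genes 9.04% were lower and 26.5% higher by the same rule, with a median of 0.39. Lower and higher always mean shTRMT6 against shControl. Footprint libraries count ribosomes on messages, and no RNA-seq was used here, so less message, fewer ribosomes per message and fewer expressing cells cannot be told apart.

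The direction of the members stood against the shift of the whole table. With each library scaled to its median, which brought the median of all tested genes to -0.07, 32 members were lower and 0 higher, against 19.7% and 13.1% of all tested genes, and the members' median was -1.38. PSMC4, PSMC6, PSMD4, PSMD6, PSMD12, PSME3 and PSMG2 joined the lower calls and PSMD13 lost its call. In the knockdown table short and highly covered genes tended to be lower, and most core genes are both. With the trends of fold change with level and with coding length removed, 24 members were lower and 1 higher, against 13.7% and 13.5% of all tested genes, and the members' median was -0.75. That step also narrowed the distance between the core, with 11 of 14 lower and a median of -0.96, and the regulatory particle, with 8 of 18 lower, 1 higher and a median of -0.69. In 28 members every knockdown library was below every control library, and in 3 (PSMC3, ADRM1 and PSMD13) every knockdown library was above. The groups did not overlap in this way in 14.3% of all tested genes in the lower direction and 37.0% in the higher.

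**Figure D1:**
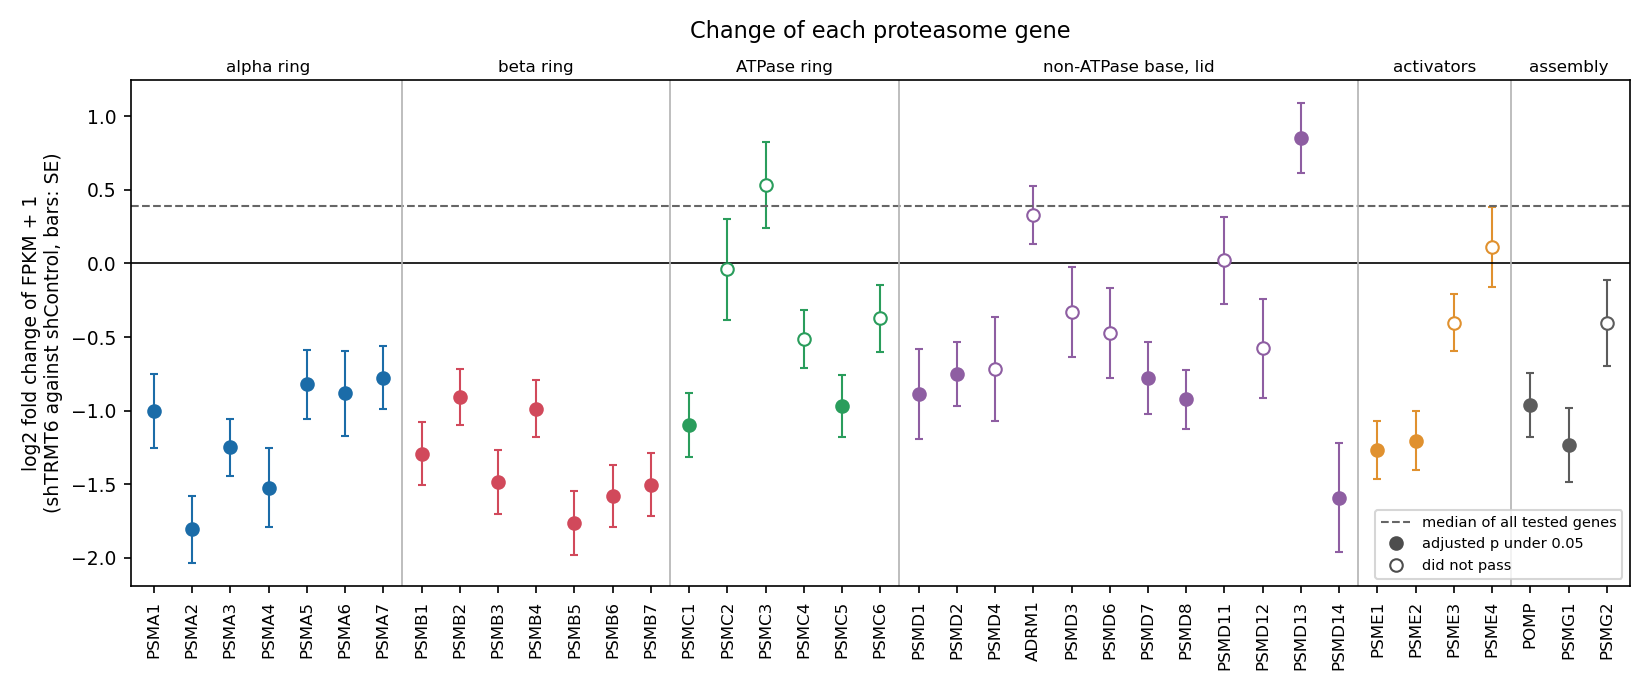
Log2 fold change of FPKM + 1 for each of the 39 members (vertical axis, shTRMT6 against shControl, bars: SE), grouped by role along the horizontal axis. Filled points passed at limma adjusted p under 0.05, and the dashed line is the median of all tested genes, 0.39. All 14 core genes lie between -1.80 and -0.78, and PSMD13 at 0.85 is the only filled point above 0.

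The members do not sit together in the genome. They lie on 16 chromosomes, with 7 each on chromosomes 14 and 17. PSME1 (chr14:24136158-24138967, plus strand) and PSME2 (chr14:24143362-24147570, minus strand) are close neighbours, and PSMB5 (chr14:23016543-23035230, minus strand) is on the same chromosome. These positions are gene bounds in GENCODE 29 on GRCh38.

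Promoters were read from RefSeq (GRCh38.p14, 250 bases before to 50 bases after the start) because most members moved together. The table matched 34 members by symbol, and PSMA7, PSMB1, PSMB6, PSMB7 and PSMD4 had no entry. Of the 34, 21 (61.8%) hold TGANNNNGC on either strand, against 42.6% of 15325 promoters of genes in the footprint table. This pattern is a loose form of the core of the antioxidant response element that NFE2L1 and NFE2L2 bind. Each N takes any base, so a match need not be such an element. The sequence CCAAT, the letters of the box bound by NF-Y, is in 17 of the 34 against 36.6%. Neither motif contains the other, and both strands were searched. Among members that fell, 13 of 21 promoters (61.9%) hold TGANNNNGC, and among the other members 8 of 13 (61.5%), so the motif did not separate them. The 200 bases before the start follow for 5 members that span the results, PSMA2 and PSMB5 with the lowest fold changes of the core rings, PSMC1 as the lowest of the ATPase ring, PSMD14 as the lowest of the cap and PSMD13 as the one that rose. They are written along the strand of the gene, 5′ to 3′. Capitals mark TGANNNNGC and CCAAT or the reverse complement of either.
PSMA2 (chr7:42932175-42932374, minus strand): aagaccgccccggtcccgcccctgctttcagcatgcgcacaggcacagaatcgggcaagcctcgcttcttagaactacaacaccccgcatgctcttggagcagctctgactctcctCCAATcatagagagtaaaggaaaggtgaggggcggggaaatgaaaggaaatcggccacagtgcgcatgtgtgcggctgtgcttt
PSMB5 (chr14:23035221-23035420, minus strand): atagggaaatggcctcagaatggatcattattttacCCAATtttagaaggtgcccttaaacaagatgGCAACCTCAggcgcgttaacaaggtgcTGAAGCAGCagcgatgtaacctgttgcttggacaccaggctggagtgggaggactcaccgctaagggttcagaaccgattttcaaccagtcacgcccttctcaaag
PSMC1 (chr14:90256353-90256552, plus strand): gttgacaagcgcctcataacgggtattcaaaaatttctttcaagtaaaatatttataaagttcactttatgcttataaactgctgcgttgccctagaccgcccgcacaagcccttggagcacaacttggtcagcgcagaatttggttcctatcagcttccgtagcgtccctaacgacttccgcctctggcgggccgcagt
PSMD14 (chr2:161308225-161308424, plus strand): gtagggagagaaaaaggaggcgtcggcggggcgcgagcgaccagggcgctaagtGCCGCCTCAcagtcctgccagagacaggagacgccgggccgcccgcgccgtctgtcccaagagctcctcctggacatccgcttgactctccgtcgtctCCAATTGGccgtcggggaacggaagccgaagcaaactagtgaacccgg
PSMD13 (chr11:236776-236975, plus strand): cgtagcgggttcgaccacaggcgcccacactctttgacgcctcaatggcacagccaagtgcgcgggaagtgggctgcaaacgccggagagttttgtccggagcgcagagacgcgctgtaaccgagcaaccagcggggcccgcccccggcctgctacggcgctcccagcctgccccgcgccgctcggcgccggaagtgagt

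The PSMB5 stretch holds 2 matches to TGANNNNGC, the farther one starting 133 bases before the start, and a CCAAT 164 bases before it. The PSMD14 stretch holds 1 match to TGANNNNGC, 146 bases before the start, and a pair of overlapping CCAAT matches, 1 on each strand, from 48 bases before it. The PSMA2 stretch has only a CCAAT, 84 bases before the start, and that of PSMC1 holds neither sequence. The printed PSMD13 stretch holds no whole match, but its full window has a TGANNNNGC that runs across the start, and it is counted among the 21. A match is a string of letters, and these data do not measure binding.

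In the alpha ring all 7 genes fell, from -1.80 for PSMA2 to -0.78 for PSMA7, and the ring's median was the -1.003 of PSMA1. PSMA2 (chr7:42916857-42932223, minus strand) was at 101.85, 85.58 and 101.28 FPKM in shControl and at 26.87, 30.37 and 23.42 FPKM in shTRMT6. Its lowest control library was well above its highest knockdown library, and the mean was 3.58-fold lower (log2 fold change -1.80, SE 0.23, limma adjusted p = 0.00108). PSMA3 went from 412.84, 446.47 and 490.49 FPKM to 170.92, 196.83 and 198.64 FPKM (-1.25, SE 0.20, limma adjusted p = 0.00221), with both groups tight. PSMA4 went from 469.81, 400.76 and 771.94 FPKM to 189.05, 157.27 and 203.50 FPKM (-1.52, SE 0.27, limma adjusted p = 0.00348), with shControl replicate 3 far above the other controls. PSMA6 had the largest p of the ring, at 385.35, 421.88 and 817.45 FPKM against 255.29, 275.59 and 299.88 FPKM (-0.88, SE 0.29, limma adjusted p = 0.0387). Here too shControl replicate 3 stood apart, but the groups did not overlap without it. PSMA7 was the most highly covered core gene, with a mean of 1178 ± 192 FPKM (SD, n = 3) under the control hairpin and 685 ± 93.0 FPKM (SD, n = 3) in the knockdown, and PSMA1 and PSMA5 had log2 fold changes of -1.003 and -0.82.

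The alpha ring calls were not equally firm. PSMA5, PSMA6 and PSMA7 did not pass with the trends in level and length removed (limma adjusted p = 0.118, 0.239 and 0.163). PSMA5 also missed the threshold without shControl replicate 1 and without any of the 3 knockdown libraries (limma adjusted p = 0.0501, 0.0511, 0.0684 and 0.0929), PSMA6 without shTRMT6 replicate 1, 2 or 3 (0.119, 0.0939 and 0.0811), PSMA7 without shControl replicate 1 or 2 or shTRMT6 replicate 1 or 3 (0.0765, 0.0514, 0.0891 and 0.0842) and PSMA1 without shTRMT6 replicate 3 (0.0617). Quantile normalization also ended the calls of PSMA6 and PSMA7 (limma adjusted p = 0.149 and 0.147). That of PSMA6 ended too with the share of the library sum (0.0853), without the filter on low values (0.0603) and without the intensity trend (0.0645). PSMA1 (chr11:14504874-14643635, minus strand) overlaps the gene model AC018523.2 on its own strand. That model was at 78.32, 91.66 and 132.41 FPKM in shControl and at 144.26, 104.82 and 171.75 FPKM in shTRMT6, so its values lean the other way (log2 fold change 0.48, limma adjusted p = 0.198). How reads on shared exons were divided is not given in the sources used here. With the values of both models added, PSMA1 had a log2 fold change of -0.29 and did not pass (limma adjusted p = 0.358), which left 13 core genes and 24 members lower. PSMA2 also overlaps such a model, AC010132.3, which fell from 396.69, 338.76 and 426.1 FPKM to 146.99, 144.31 and 159.25 FPKM (-1.36, limma adjusted p = 0.00173). The sum of PSMA2 and that model had a log2 fold change of -1.44 (limma adjusted p = 0.00137). PSMA6 added to AL121594.1 had -0.89 (limma adjusted p = 0.0379).

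In the beta ring all 7 genes fell as well, and the middle value was the -1.48 of PSMB3. The 3 lowest fold changes belonged to the subunits with a proteolytic site. PSMB5, the chymotrypsin-like subunit that bortezomib binds, was at 731.85, 591.49 and 722.77 FPKM in shControl and at 175.63, 244.35 and 184.13 FPKM in shTRMT6. Its mean was 3.39-fold lower (log2 fold change -1.76, SE 0.22, limma adjusted p = 0.000989), the smallest p of any member. PSMB6, the caspase-like subunit, went from 415.56, 339.77 and 351.58 FPKM to 129.20, 135.23 and 104.42 FPKM (-1.58, SE 0.21, limma adjusted p = 0.00124). PSMB7, the trypsin-like subunit, went from 760.24, 603.75 and 857.29 FPKM to 280.64, 264.40 and 231.55 FPKM (-1.50, SE 0.21, limma adjusted p = 0.00155). In all 3 the control libraries lay above the knockdown libraries by a wide gap.

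Among the beta subunits without a proteolytic site, PSMB3 (-1.48) and PSMB1 (-1.29) were close to the catalytic ones, and PSMB4 (-0.99) and PSMB2 (-0.91) changed least. PSMB2 was at 359.25, 314.21 and 352.56 FPKM in shControl and at 180.24, 184.36 and 180.77 FPKM in shTRMT6 (SE 0.19, limma adjusted p = 0.00676). Its change, the smallest of the ring, was thus measured with little spread. The 7 beta genes were lower in each of the 16 fits with all libraries, other scalings, filters or pseudocounts, or 1 library left out. With PSMA2, PSMA3 and PSMA4 this makes 10 core genes. Over all tested genes that count is not given here, and it can be no more than the 590 lower without shTRMT6 replicate 1.

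**Figure D2:**
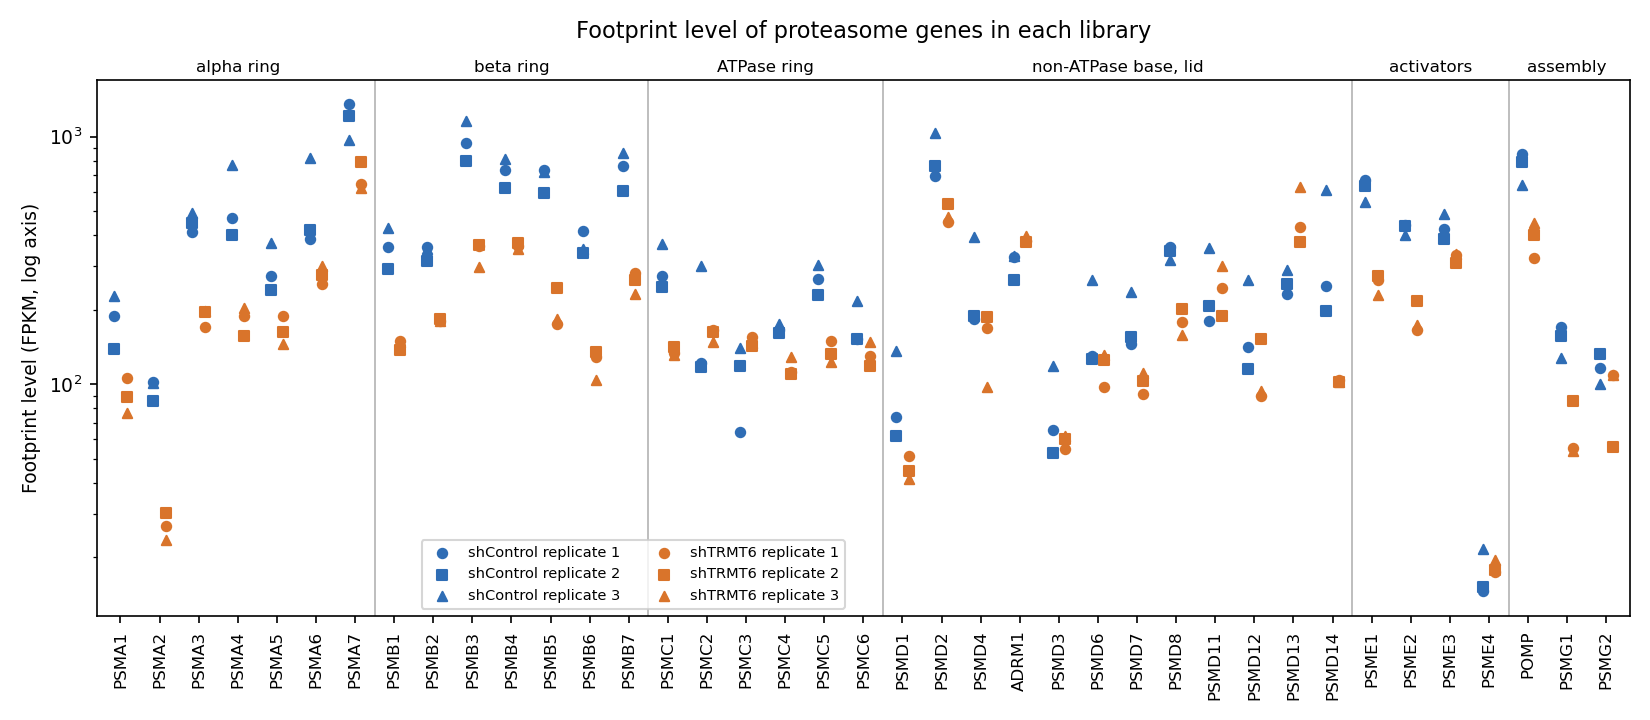
FPKM of each member (vertical axis, log scale) in the 3 shControl libraries (blue) and the 3 shTRMT6 libraries (orange), with a marker shape for each replicate number. In all 14 core genes the orange points lie below the blue ones, while in much of the cap the blue triangle, shControl replicate 3, stands above the other controls.

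The proteolytic subunits have counterparts, PSMB8, PSMB9 and PSMB10, that replace them in the immunoproteasome. These were low in RKO beside PSMB5, PSMB6 and PSMB7, and none of the 3 passed without scaling. PSMB8 was at 46.69, 48.23 and 29.51 FPKM in shControl and 51.49, 43.84 and 46.66 FPKM in shTRMT6 (log2 fold change 0.22, limma adjusted p = 0.548). PSMB9 had -0.58 (limma adjusted p = 0.0853) and PSMB10 0.71 (limma adjusted p = 0.0652), each with groups that did not overlap, in opposite directions. PSMB9 passed as lower with median scaling (-1.07, limma adjusted p = 0.0111) and without shControl replicate 3 (-0.65, 0.0484). The 3 together had 144.3 ± 30.3 FPKM in control and 155.7 ± 11.2 FPKM in knockdown libraries, and PSMB5, PSMB6 and PSMB7 had 1791 ± 222 and 583.2 ± 62.0 FPKM (SD over 3 libraries). Within a library, the immunoproteasome sum was thus 0.0927, 0.0906 and 0.0605 of the constitutive sum in shControl and 0.257, 0.262 and 0.284 in shTRMT6. The tissue subunits PSMB11 of the thymus and PSMA8 of the testis were listed at 0 in every library.

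In the ATPase ring 2 of 6 genes fell, PSMC1 and PSMC5, and 4 did not pass. The ring's median was -0.44. PSMC1 (chr14:90256495-90275429, plus strand) was at 273.31, 246.54 and 368.38 FPKM in shControl and at 134.42, 141.11 and 131.84 FPKM in shTRMT6 (-1.10, SE 0.22, limma adjusted p = 0.00558). It has 13 pseudogenes named after it, so its reads may be shared with near copies. PSMC5 went from 265.55, 229.78 and 304.38 FPKM to 149.51, 132.93 and 123.61 FPKM (-0.97, SE 0.21, limma adjusted p = 0.00761), again without overlap. PSMC4 was at 165.19, 161.27 and 175.52 FPKM against 112.15, 110.59 and 128.97 FPKM (-0.51, SE 0.20), which did not overlap and yet missed the threshold (limma adjusted p = 0.0697). It passed with median scaling (-1.01, limma adjusted p = 0.00566), with trends removed (-0.59, 0.0328) and without shControl replicate 3 (-0.48, 0.0435). PSMC2 had the largest p of the ring, at 122.33, 117.77 and 300.82 FPKM against 165.50, 163.20 and 148.23 FPKM (-0.04, SE 0.34, limma adjusted p = 0.941). shControl replicate 3 was far above every other library, and without it the log2 fold change was 0.40 (limma adjusted p = 0.0662). PSMC6 had -0.37 (limma adjusted p = 0.225). PSMC3 had 0.53 (limma adjusted p = 0.180), with every knockdown library above every control, and it passed as higher without shControl replicate 3 (0.76, limma adjusted p = 0.0452). With median scaling it had 0.04 (limma adjusted p = 0.932).

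Among the 12 non-ATPase genes of base and lid, 5 fell (PSMD1, PSMD2, PSMD7, PSMD8 and PSMD14), PSMD13 rose and 6 did not pass. The group's median was -0.65. PSMD14, the lid metalloprotease that cuts ubiquitin chains off the substrate, was at 250.61, 197.52 and 611.03 FPKM in shControl and at 103.78, 102.25 and 102.57 FPKM in shTRMT6 (-1.59, SE 0.37, limma adjusted p = 0.0101). The knockdown libraries were nearly equal, and shControl replicate 3 was 2.73 times the mean of the other controls. Without it the log2 fold change was -1.11 (limma adjusted p = 0.00283). PSMD8, a lid subunit, went from 358.18, 346.31 and 316.83 FPKM to 178.26, 202.03 and 158.69 FPKM (-0.92, SE 0.20, limma adjusted p = 0.00760), with a small spread in both groups. PSMD7, the inactive partner of PSMD14, had -0.78 (limma adjusted p = 0.0335). The large scaffold subunits of the base, PSMD2 and PSMD1, had -0.75 and -0.89 (limma adjusted p = 0.0246 and 0.0467).

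PSMD1, PSMD2 and PSMD7 lost their call whichever knockdown library was left out, with limma adjusted p from 0.0864 to 0.135 for PSMD1, 0.0513 to 0.105 for PSMD2 and 0.0741 to 0.127 for PSMD7. All 3 lost it with the share of the library sum (0.0949, 0.0505 and 0.0741), PSMD2 with quantile normalization (0.178), and PSMD1 and PSMD7 without the intensity trend (0.0643 and 0.0552). PSMD1 also lost it without shControl replicate 1 (0.0674) or 3 (0.0557), with a pseudocount of 0.1 (0.0510) and without the filter on low values (0.0673). PSMD14 and PSMD8 kept theirs in all 16 fits.

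PSMD13, a lid subunit (chr11:236546-252984, plus strand), was the only member that rose. It was at 232.19, 255.10 and 289.08 FPKM in shControl and at 431.84, 375.22 and 624.88 FPKM in shTRMT6, with no overlap and a mean 1.84-fold higher (log2 fold change 0.85, SE 0.24, limma adjusted p = 0.0213). The call ended with median scaling (0.36, limma adjusted p = 0.278) and without shControl replicate 1 (0.78, 0.0709), shTRMT6 replicate 1 (0.91, 0.0605) or shTRMT6 replicate 3 (0.64, 0.0985). With trends removed it was 1.03 (limma adjusted p = 0.00855). SIRT3 lies across it on the other strand, and whether counting used strand is not given in the sources used here. SIRT3 was at 42.21, 23.56 and 29.3 FPKM in shControl and 20.1, 44.19 and 26.31 FPKM in shTRMT6 (-0.10, limma adjusted p = 0.837), far below PSMD13 in each library. In all, 11 members overlap a coding gene on the other strand.

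ADRM1 and PSMD4, ubiquitin receptors of the cap, did not pass. ADRM1 had 0.33 (limma adjusted p = 0.213), with all knockdown libraries above the controls, but -0.17 with median scaling (limma adjusted p = 0.582). With quantile normalization ADRM1 passed as higher (0.56, limma adjusted p = 0.0496), and with trends removed it had 0.46 (0.0566). PSMD4 had -0.71 (limma adjusted p = 0.139). PSMD11, a lid scaffold subunit, had the largest p of the group, at 179.87, 206.40 and 355.93 FPKM in shControl and 243.94, 188.64 and 300.61 FPKM in shTRMT6 (0.02, SE 0.30, limma adjusted p = 0.961), and with median scaling -0.47 (limma adjusted p = 0.252). PSMD3, PSMD6 and PSMD12, also of the lid, had -0.33, -0.47 and -0.58, with overlapping groups in each.

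The spread among control libraries touched the cap more than the core. shControl replicate 3 was the highest control library in 17 of 18 regulatory particle genes, 9 of 14 core genes and 28 of 39 members, against 31.9% of all tested genes. Its value over the mean of the other controls reached 2.73 for PSMD14 and 2.51 for PSMC2, and was 0.78 to 0.80 for the 3 assembly factors. Without this library the members had 25 lower and 2 higher, PSMC3 and PSMD13, against 12.4% and 28.6% of tested genes. The core kept 14 of 14 lower with a median of -1.17, and the regulatory particle had 7 lower and 2 higher with a median of -0.29. PSMC4 joined the lower calls, PSMD1 left them, and PSMD3 went to 0.0043 (limma adjusted p = 0.987).

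**Figure D3:**
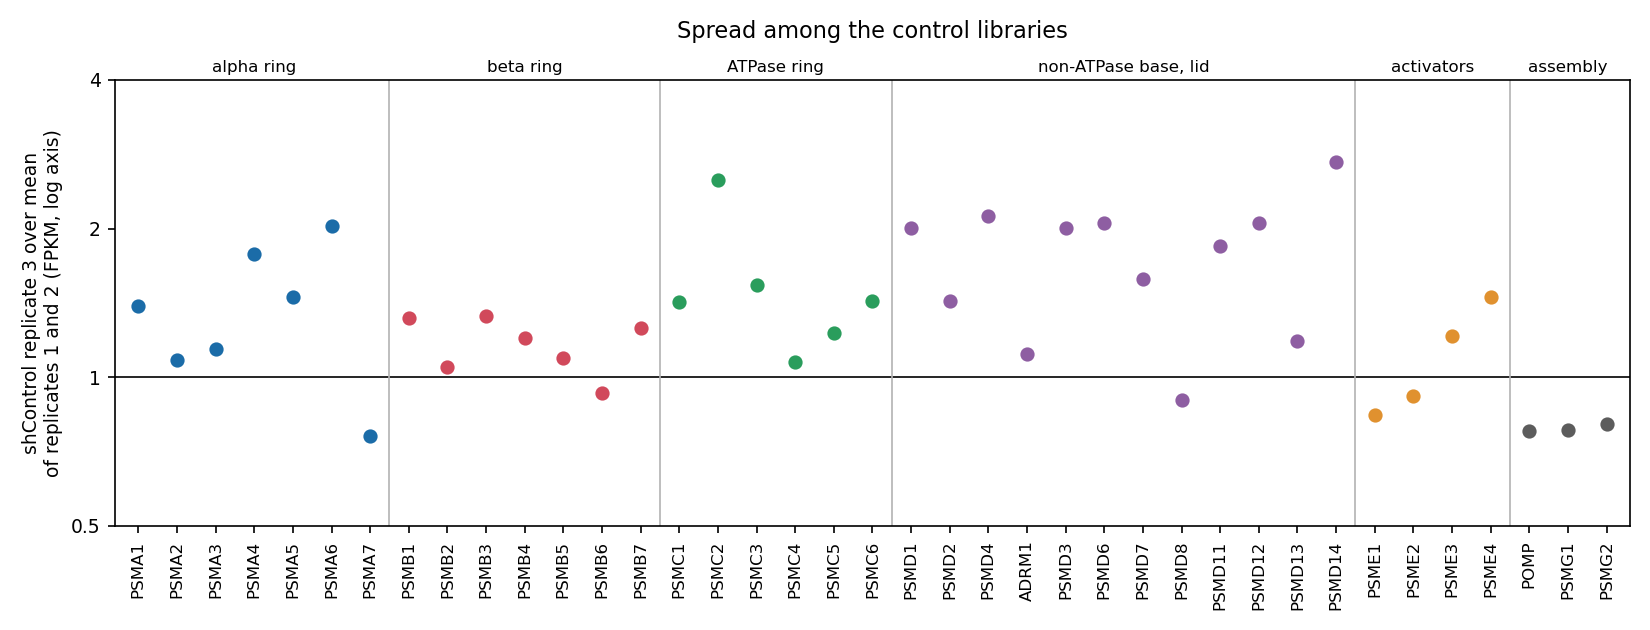
FPKM in shControl replicate 3 over the mean of shControl replicates 1 and 2 for each member (vertical axis, log scale), grouped by role. A value of 1 (line) means that the library equals the mean of the others. The non-ATPase genes reach 2.73 and the assembly factors lie at 0.78 to 0.80.

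Of the activators, PSME1 and PSME2 fell and PSME3 and PSME4 did not pass. PSME1 and PSME2 form the PA28 ring that interferon induces and that opens the core without ATP. PSME1 was at 666.90, 635.18 and 546.21 FPKM in shControl and at 262.77, 273.57 and 228.49 FPKM in shTRMT6 (log2 fold change -1.27, SE 0.20, limma adjusted p = 0.00215). PSME2 went from 440.77, 435.66 and 401.95 FPKM to 166.36, 216.61 and 173.50 FPKM (-1.20, SE 0.20, limma adjusted p = 0.00281). Both had tight groups far apart, and in both shControl replicate 3 was the lowest control. PSME3, the nuclear PA28 subunit, was at 423.37, 385.03 and 488.72 FPKM against 331.57, 308.86 and 335.83 FPKM (-0.40, SE 0.20, limma adjusted p = 0.133), below the controls but with a small gap. It passed with median scaling (-0.90, limma adjusted p = 0.0103) and had -0.03 with trends removed (0.909). PSME4, a large nuclear activator, was the least covered member per length, at 14.58, 15.21 and 21.60 FPKM against 17.51, 17.81 and 19.62 FPKM (0.11, SE 0.27, limma adjusted p = 0.773). With trends removed it had -0.79 and passed as lower (limma adjusted p = 0.0479).

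Of the assembly factors, POMP and PSMG1 fell. POMP, which guides the beta subunits onto the alpha ring and is the first substrate of the finished core, was at 851.50, 789.71 and 637.33 FPKM in shControl and at 324.24, 399.54 and 447.94 FPKM in shTRMT6 (-0.96, SE 0.22, limma adjusted p = 0.00899). It missed the threshold without shTRMT6 replicate 1 (-0.83, limma adjusted p = 0.0551). PSMG1, a chaperone of the alpha ring, went from 170.58, 157.07 and 127.87 FPKM to 55.39, 85.33 and 54.04 FPKM (-1.24, SE 0.25, limma adjusted p = 0.00614). Neither gene's groups overlapped. PSMG2, the partner of PSMG1, was at 116.67, 132.61 and 100.28 FPKM against 108.61, 56.10 and 108.68 FPKM (-0.40, SE 0.29, limma adjusted p = 0.302). Its groups overlapped, with only shTRMT6 replicate 2 far below the rest.

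Sums within each library show the balance between the parts. A ratio of sums within a library does not depend on a single factor that scales that library. It can still carry the trends with level and coding length, which were not removed from these sums. These ratios were not tested. The 14 core genes added up to 7484, 6501 and 8433 FPKM in shControl and to 3220, 3407 and 3063 FPKM in shTRMT6, 2.31-fold lower on the means. The 6 ATPase genes added up to 1043, 1025 and 1506 FPKM and to 847.4, 809.1 and 827.6 FPKM, 1.44-fold lower. The 12 non-ATPase genes added up to 2782, 2731 and 4355 FPKM and to 2346, 2450 and 2595 FPKM. Their means were 3289 ± 923 and 2464 ± 126 FPKM, 1.34-fold lower (SD, n = 3 each). Without shControl replicate 3 the sums were 2.165-fold (core), 1.249-fold (ATPase) and 1.119-fold (non-ATPase) lower. The core sum was 7.18, 6.34 and 5.60 times the ATPase sum in the control libraries and 3.80, 4.21 and 3.70 times in the knockdown libraries. Against the non-ATPase sum it was 2.69, 2.38 and 1.94 times and 1.37, 1.39 and 1.18 times. Neither ratio overlapped between groups. The ATPase sum over the non-ATPase sum did overlap, at 0.375, 0.375 and 0.346 in shControl and 0.361, 0.330 and 0.319 in shTRMT6.

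Inside the core the beta sum was lower by more (2.59-fold) than the alpha sum (2.04-fold). The alpha sum over the beta sum was 0.741, 0.827 and 0.803 in shControl and 0.964, 0.999 and 1.05 in shTRMT6, and the 3 catalytic subunits made up 0.240 ± 0.0134 of the core sum in control libraries and 0.180 ± 0.0097 with knockdown (SD over 3 libraries). Both ratios kept the groups apart. PSMA7, the least changed core gene, made up 1178 of the mean alpha sum of 3294 FPKM in shControl. With mean log2(FPKM + 1) in place of sums, alpha over beta was 0.5946, 0.6477 and 0.7031 in shControl. In shTRMT6 it was then 0.7482, 0.721 and 0.7725. The means of that ratio differed 1.152-fold, against 1.27-fold from sums. PSME1 and PSME2 moved about as the core did, with a sum over the core sum of 0.142 ± 0.0267 and 0.136 ± 0.0068, and overlapping groups. The sum over the assembly factors was 0.140 ± 0.0333 and 0.170 ± 0.0257 of the core sum, also with overlap. All 39 members made up 0.889% ± 0.215 of all FPKM in a control library and 0.503% ± 0.0115 in a knockdown library (SD over 3 libraries).

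**Figure D4:**
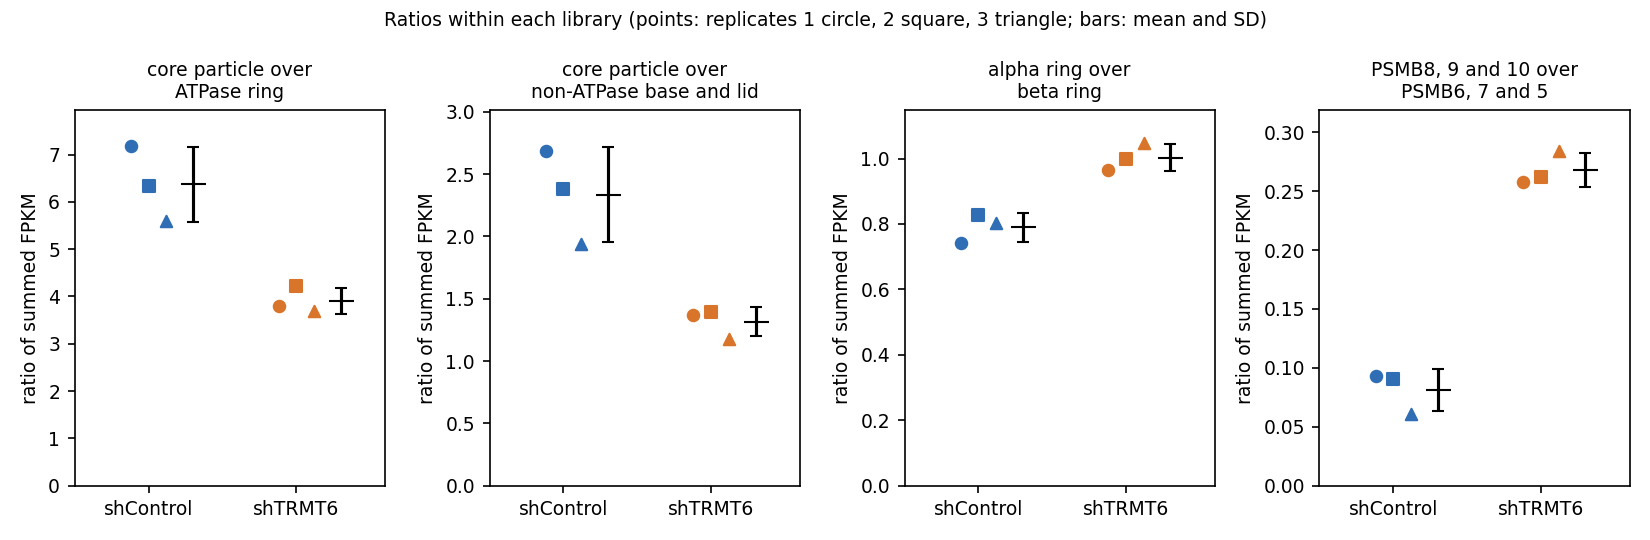
Ratios of summed FPKM within each library (vertical axes), with points for the 3 libraries of each group and bars for mean and SD. Core over ATPase ring is 5.60 to 7.18 in shControl and 3.70 to 4.21 in shTRMT6, and the other 3 ratios also keep the groups apart.

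The fold change of a member went with its coding length. Over the 39 members Spearman's rho between log2 fold change and log2 coding length was 0.587 (Pearson's r 0.479), and over 11410 tested genes with a coding length it was 0.364 (0.333). Genes of 1 library share its depth and scaling and are not independent, so these values are descriptions. Core genes are short, 603 to 831 nt, ATPase genes run from 1209 to 1320 nt, and non-ATPase genes from 930 to 2859 nt, so the core does not overlap the cap in length. Among other tested genes in the core's range of length and mean level, 31.2% of 532 were lower, with a median of -0.26, beside the -1.27 of the core. In the range of the ATPase genes 8.11% of 37 were lower, with a median of 0.24, beside -0.44, and in that of the non-ATPase genes 12.5% of 1300, with a median of 0.21, beside -0.65. These shares are descriptions and carry no test. PSMD2 and PSMD1 are the longest of the cap genes, at 2724 and 2859 nt, and PSMD14, at 930 nt, is the shortest.

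**Figure D5:**
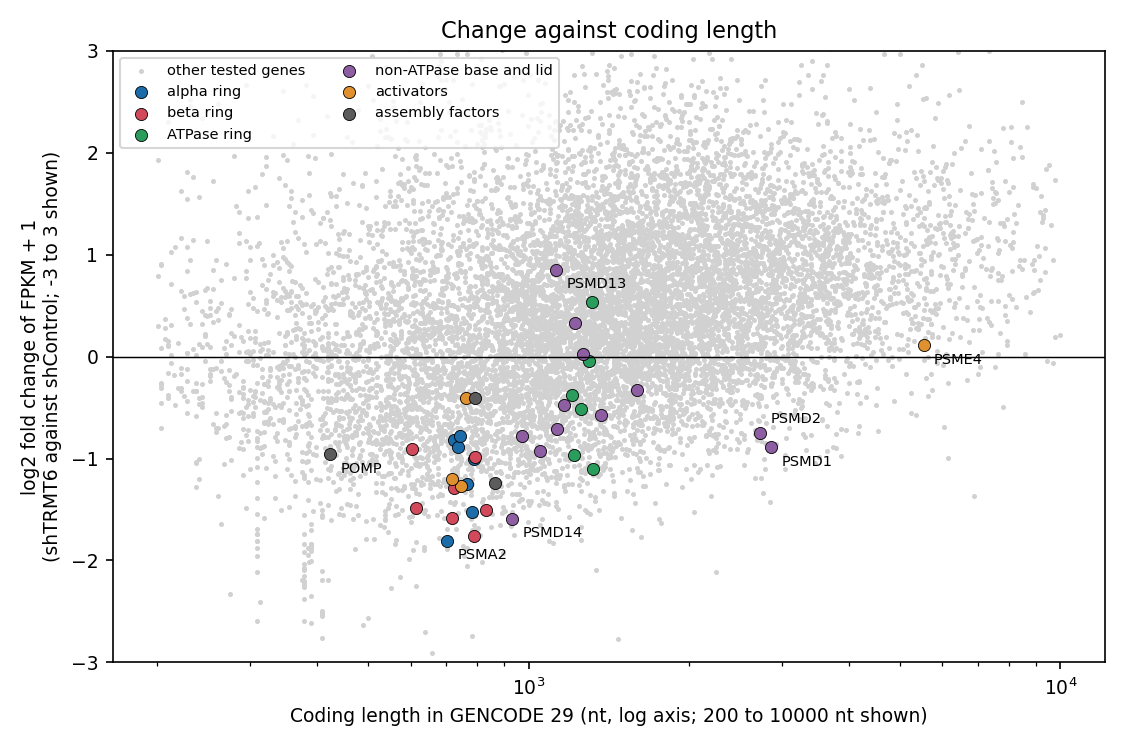
Log2 fold change of FPKM + 1 (vertical axis) against coding length in GENCODE 29 (horizontal axis, log scale) for tested genes in grey and members in colour by role. The core genes sit together at 603 to 831 nt below 0, and the ATPase genes at 1209 to 1320 nt are spread from -1.10 to 0.53.

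Other genes of the ubiquitin and proteasome pathway were taken from a list. Of 38 such genes 36 were tested, 8 were lower, 1 was higher and 27 did not pass (median -0.10), beside 9.04% lower and 26.5% higher among all tested genes (median 0.39). Scaling to the library median made that 16 lower and 0 higher, beside 19.7% and 13.1%. Among 7 further subunits and assembly factors the base chaperone PSMD10 was the only one called without scaling, and fell from 155.07, 132.92 and 114.59 FPKM to 76.62, 62.91 and 68.11 FPKM (-0.94, SE 0.22, limma adjusted p = 0.0104). With median scaling PSMD5, PSMD9 and PAAF1, which also help to build the base, were lower too (limma adjusted p = 0.00651, 0.0172 and 0.0160). With trends removed PSMD5 and PAAF1 were lower (0.0203 and 0.0201) and SEM1, a small lid subunit, was higher (0.0494). Of 8 inhibitors and associated factors, PSMF1, an inhibitor that binds the core, and the thioredoxin TXNL1, a cap partner, fell (-1.01 and -1.38, limma adjusted p = 0.00614 and 0.00812). PSMF1 stood at 193.28, 170.52 and 151.32 FPKM in shControl and at 80.38, 87.14 and 85.92 FPKM in shTRMT6. Without scaling none of the 4 genes of transcription control passed, NFE2L1 (0.42, limma adjusted p = 0.233), NFE2L2 (-0.49, 0.196), the protease DDI2 (0.13, 0.693) and the glycanase NGLY1 (0.66, 0.0780), the last 2 of which act on NFE2L1. NFE2L2 passed as lower with median scaling (-0.97, limma adjusted p = 0.0234) and with trends removed (-1.08, 0.0155).

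Of 8 genes that deliver substrates, the shuttle factors RAD23B and UBQLN1 fell (-0.99 and -0.90, limma adjusted p = 0.00595 and 0.0156). NPLOC4, a cofactor of the segregase VCP, rose (0.92, limma adjusted p = 0.0131), but not with median scaling (0.43, limma adjusted p = 0.155) or trends removed (0.58, 0.0566). UBQLN1 lost its call without shTRMT6 replicate 1 or 3 (0.0630 and 0.0703), and so did NPLOC4 (0.0581 and 0.0526). VCP was at 56.96, 58.24 and 234.62 FPKM in shControl and 173.68, 134.97 and 124.03 FPKM in shTRMT6 (0.63, limma adjusted p = 0.333), with shControl replicate 3 far above the other controls, and without that library VCP was higher (1.29, limma adjusted p = 0.00280). Of the ubiquitin genes, UBB, which encodes polyubiquitin, and RPS27A, which encodes ubiquitin fused to a ribosomal protein, fell (-0.76 and -1.10, limma adjusted p = 0.0380 and 0.00570), and neither passed with trends removed (0.597 and 0.0988) or quantile normalization (0.611 and 0.0542). The call of UBB ended whichever knockdown library was left out, and without shControl replicate 1 (0.0616 to 0.138). It also ended with the share of the library sum (0.0730), without the filter on low values (0.0640) and without the intensity trend (0.0668). RPS27A has 17 pseudogenes named after it.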

How the data were processed

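The table holds FPKM per gene for 6 ribosome footprint libraries, as the authors deposited it, per the file headers. STAR, fastp and RSEM are listed as tools, per the submitters' processing notes, with neither version nor role. Lysates were digested with RNase I and protected fragments purified, per the labels' protocols. Genome build, annotation and strand setting were not given in the sources used here. Columns named NC and SH, numbered 1 to 3, were read as shControl and shTRMT6, which no label spells out, and 0 columns stayed unassigned. Symbols were found for 19705 of 20289 identifiers. Gene positions and coding lengths came from GENCODE 29.

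Values were tested as log2(FPKM + 1) with limma 3.58.1 in R 4.3.3, with group as the only term and an intensity trend. The pseudocount of 1 makes fold changes of low genes smaller. Tables were built with Python 3.11.15 and pandas 2.3.3. The fit was checked on simulated data. Depth was estimated from the steps of low values, of which 69.3% to 78.1% came within 0.1 of a whole read, too few for a count test. Alternatives were median scaling, share of the library sum, quantile normalization, removal of trends with level and length (splines with 5 degrees of freedom), a pseudocount of 0.1, no filter, a minimum mean of 5 FPKM, a replicate block, no intensity trend and leaving out each library.

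The members and all gene lists were chosen with earlier results of these data known. By the rule for named genes, every member is named, and values in all libraries are given for the 3 smallest p-values and the largest in each role group, for the catalytic subunits and for a member that moved against the others. Of the other pathway genes those that passed are given values, except for some that are counted but not reported here by name. The values of PSMB8, PSMB9, PSMB10, PSMD5, PSMD9, PAAF1, SEM1, VCP, the genes of transcription control, SIRT3, CD68 and the overlapping gene models fall outside that rule and were chosen after they were seen. Protein sequences were not analysed here.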

Additional observations from a re-analysis of the deposited data

How the results depend on the processing

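Over 16 settings, the reported one included, 17 members were lower in every fit, 10 of them core genes. The same count over all tested genes is not given here. It can be no more than the 590 lower without shTRMT6 replicate 1. The count of lower members was 18 to 32 and that of lower core genes 10 to 14. With median scaling, members higher numbered 0, regulatory genes lower 12, all tested genes lower 2275 and higher 1520. The members' median was then -1.38 and that of all genes -0.067. This scaling shifts every log2 fold change by nearly the same amount. With quantile normalization, 2 members (PSMD13 and ADRM1) were higher, 1700 of all genes lower and 1602 higher. The median of all genes was then -0.044, and the members' median lay -0.68 from it. With trends removed, 1537 of all genes were higher, their median was -0.0562, and the members' median lay -0.70 from it. With the share of the library sum, 4 regulatory genes were lower. Leaving out 1 library at a time gave 0 to 2 members higher, 4 to 7 regulatory genes lower, 590 to 1427 of all genes lower and 1769 to 3290 higher. The low counts of regulatory genes came without shTRMT6 replicate 1, 2 or 3, and those of all genes lower without shTRMT6 replicate 1 or 3 (590 and 601) or shControl replicate 1 (689). With fewer libraries the test has fewer degrees of freedom.

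2 alternatives were chosen after seeing the data. Median scaling without shControl replicate 3 gave 31 members lower and 0 higher, 11 regulatory genes lower, 2727 of all genes lower and 1720 higher. Its medians were -1.31 for the members and -0.0698 for all genes. Adding overlapping models changed the call of PSMA1 alone among the members.

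Some genes that did not pass changed sign. PSMC2 was 0.0398 with the library share and ran from -0.27 to 0.40 with 1 library left out, positive without shControl replicate 3 (0.40) and shTRMT6 replicate 3 (0.01). PSMD3 ran from -0.57 to 0.0043, the latter without shControl replicate 3. PSMD11 was -0.47 with median scaling, ran from -0.17 to 0.32 with 1 library left out, negative without shControl replicate 1 or 2 or shTRMT6 replicate 3, and was -0.15 with median scaling without shControl replicate 3. ADRM1 was -0.17 and -0.0857 with median scaling, with and without that library. PSME4 was -0.36 and -0.17 in these, -0.49 with quantile normalization and -0.79 with trends removed. The causes were not tested. As ratios of shControl to shTRMT6, ATPase over non-ATPase turned to 0.950 from mean logs, and PA28 over core to 0.9993 from mean logs and ran from 0.957, without shControl replicate 2, to 1.149 with 1 library left out.

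Same-numbered libraries deviated together with correlations of 0.012, 0.0134 and 0.102, so the numbers were not taken as pairs. With a replicate block 25 members were lower, 14 of them core genes, and no member's call changed. All genes lower numbered 1065 and higher 3146. Few reads, as for PSMA2 (SE 0.23), limit the precision of a value. The largest SE of a member was the 0.37 of PSMD14, with an estimated 246 to 2215 reads.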
